A study of Mus musculus with 12 samples.

Results

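The Schlafen genes of the mouse were followed through terminal erythroid differentiation in bone marrow. The 8 members were the rows of the expression table named Slfn1, Slfn2, Slfn3, Slfn4, Slfn5, Slfn8, Slfn9 and Slfn14, out of 29838 genes. The family was chosen by the FPKM of Slfn14 in these same libraries, which were known to be much higher in late stages, so the values of Slfn14 are given as a description without a test. The other 7 members entered by their name, and their differences were tested. Across the stages Slfn14 went from a mean of 5.17 to 163 FPKM, Slfn1, Slfn2, Slfn4, Slfn5, Slfn8 and Slfn9 were moderately higher in the last stage than in the initial stage, and Slfn3 was lower.

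The libraries came from erythroblasts of 8-week-old male wild-type C57BL/6 mice, sorted by flow cytometry into proerythroblasts (Pro), basophilic (Baso), polychromatic (Poly) and orthochromatic (Ortho) erythroblasts, with 3 libraries for each of the 4 stages. No stage carried a genetic change or a treatment. CD45-negative marrow cells were enriched on beads and gated as negative for CD45, CD11b and GR1, Pro by high CD44 and low Ter119, and the other stages among Ter119-positive cells by CD44 and cell size. For Ortho replicates 2 and 3 the cell type label says only that they are erythroblasts, and the stage was taken from the title. The sources used here do not say whether the 3 libraries of a stage came from separate mice, so the p-values measure the spread between these libraries, which may be technical.

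Schlafen proteins share an N-terminal Schlafen domain that can bind and cleave RNA, and the longer members also carry a helicase-like domain. The founding members were found as growth regulators of developing thymocytes, Slfn2 is known for keeping T cells and monocytes quiescent, and several members are induced by type I interferon. SLFN14 was isolated from reticulocytes as a ribosome-bound endoribonuclease that degrades ribosomal RNA and mRNA, and in humans its mutation causes a platelet disorder. The genes form a cluster on chromosome 11, from 82951349 to 83286726 in mm10 (335 kb), with Slfn5 at one end and Slfn14 at the other. Slfn14 (ENSMUSG00000082101) lies on the minus strand from 83275110 to 83286726, with 5 exons and a coding length of 2697 bases. Slfn5, Slfn8 and Slfn9 have similar coding lengths of 2652, 2730 and 2730 bases, Slfn3 and Slfn4 are shorter with 1920 and 1806 bases, and Slfn1 and Slfn2 are the shortest with 1011 and 1134 bases.

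The promoters of the 4 long members are shown because they hold the GATA and interferon-type motifs of the family. Each runs from 250 bases before to 50 bases after the RefSeq start site on GRCm38.p6, 5′ to 3′ on the strand of the gene, and capitals mark matches of the motifs described after them. The promoters are those of Slfn14 (chr11:83286677-83286976, minus strand), Slfn9 (chr11:82991781-82992080, minus strand), Slfn8 (chr11:83020761-83021060, minus strand) and Slfn5 (chr11:82951852-82952151, plus strand).
Slfn14: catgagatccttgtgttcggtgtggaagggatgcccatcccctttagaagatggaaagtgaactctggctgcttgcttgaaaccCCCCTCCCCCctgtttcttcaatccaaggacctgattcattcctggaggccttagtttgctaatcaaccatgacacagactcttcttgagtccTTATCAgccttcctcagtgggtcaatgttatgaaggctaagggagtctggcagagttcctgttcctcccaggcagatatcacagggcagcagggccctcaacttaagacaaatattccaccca
Slfn9: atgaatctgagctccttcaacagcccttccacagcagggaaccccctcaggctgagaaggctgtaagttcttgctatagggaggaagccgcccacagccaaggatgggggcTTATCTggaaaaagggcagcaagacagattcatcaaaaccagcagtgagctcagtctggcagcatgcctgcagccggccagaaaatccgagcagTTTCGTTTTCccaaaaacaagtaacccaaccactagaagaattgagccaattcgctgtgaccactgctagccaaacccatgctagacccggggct
Slfn8: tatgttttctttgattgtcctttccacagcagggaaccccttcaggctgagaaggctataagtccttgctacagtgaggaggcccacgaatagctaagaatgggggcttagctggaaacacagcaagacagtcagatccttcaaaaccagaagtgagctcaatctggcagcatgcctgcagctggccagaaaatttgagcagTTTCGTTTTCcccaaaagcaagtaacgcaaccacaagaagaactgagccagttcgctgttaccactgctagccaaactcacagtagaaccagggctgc
Slfn5: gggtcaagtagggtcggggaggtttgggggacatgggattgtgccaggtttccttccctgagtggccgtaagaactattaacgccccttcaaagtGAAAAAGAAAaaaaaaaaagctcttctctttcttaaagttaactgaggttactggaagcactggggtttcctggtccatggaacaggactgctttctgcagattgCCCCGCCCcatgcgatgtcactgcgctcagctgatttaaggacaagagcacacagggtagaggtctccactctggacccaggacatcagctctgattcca

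Both strands of the promoters of all 8 members were searched for a GATA motif (AGATAA or TGATAA), a KLF motif (CCNCNCCC), the core of an interferon-stimulated response element (GAAA, any 2 bases and GAAA again) and a STAT motif (TTCNNNGAA). The GATA motif was found in Slfn14, with its bases at -73 to -68 from the start site on the opposite strand, and in Slfn9, and 18.6% of 32851 RefSeq promoters of the same length hold it. Slfn14 also held overlapping KLF matches, from -166 to -157, and Slfn3 and Slfn5 held 1 each, against 49.5% of all promoters. The interferon core was found in Slfn5, Slfn8 and Slfn9, against 3.44% of all promoters. In Slfn8 and Slfn9 it was the same run of 10 bases, TTTCGTTTTC, on the opposite strand at -48 to -39 and -45 to -36. No member held the STAT motif, and the promoters of Slfn1, Slfn2 and Slfn4 held none of the 4 motifs. These matches describe the letters of these windows and are not shown to be binding sites.

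Expression is given as FPKM, fragments scaled by the length of the gene and the fragments of the library, so that levels of different genes can be set side by side. Differences are log2 fold changes of FPKM + 1, which understate the change of genes with low values. A gene passed the test at a limma adjusted p under 0.05 over the 12994 genes tested, and was called different when its log2 fold change was also at least 1 in either direction. All 8 members passed the filter for testing, which asked for 3 or more libraries at 1 FPKM or above. The libraries held 11964 to 12297 genes with an FPKM of at least 1, and libraries of a stage correlated at 0.973 to 0.984 across genes. FPKM depend on what else the library holds, and against Pro the genes tested had a median log2 fold change of -0.23 (Baso), -0.20 (Poly) and -0.42 (Ortho). With hemoglobin genes left out and the libraries rescaled, the Ortho median was -0.01 and 1992 genes were called higher and 1152 lower, against 823 and 3092 as deposited, while equal library sums gave a median of -0.73 with 319 higher and 4863 lower. The summed FPKM of 12 late erythroid genes such as Hba-a1 and Slc4a1 went from 20891 to 32431 in Pro libraries to between 170260 and 203314 in Ortho libraries.

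Slfn14 was at 5.43, 6.74 and 3.35 FPKM in the Pro libraries. It was at 41.6, 32.7 and 29.6 in Baso and at 35.0, 34.5 and 30.6 in Poly. In Ortho the libraries were at 161, 154 and 175. Every Baso and Poly library thus lay above every Pro library, Baso and Poly overlapped, and every Ortho library lay above all others. The means were 5.17 ± 1.71, 34.6 ± 6.20, 33.4 ± 2.42 and 163 ± 10.7 (SD, n = 3) in Pro, Baso, Poly and Ortho, a 31.6-fold difference between the ends. On the log2 scale the differences were 2.55 from Pro to Baso, -0.04 from Baso to Poly and 2.26 from Poly to Ortho. The increase thus came in 2 steps with a plateau between them. Such a plateau is not particular to Slfn14. Of all genes tested, 0.516% were called different from Baso to Poly, against 10.4% from Pro to Baso and 5.86% from Poly to Ortho. The hemoglobin gene Hba-a1 had means of 12797, 60313, 60769 and 92608 FPKM in Pro, Baso, Poly and Ortho. Among the genes tested, 34.7% had a lower mean than Slfn14 in Pro and 97.5% in Ortho. In bulk libraries, fewer cells of a type and less RNA per cell cannot be told apart.

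**Figure D1:**
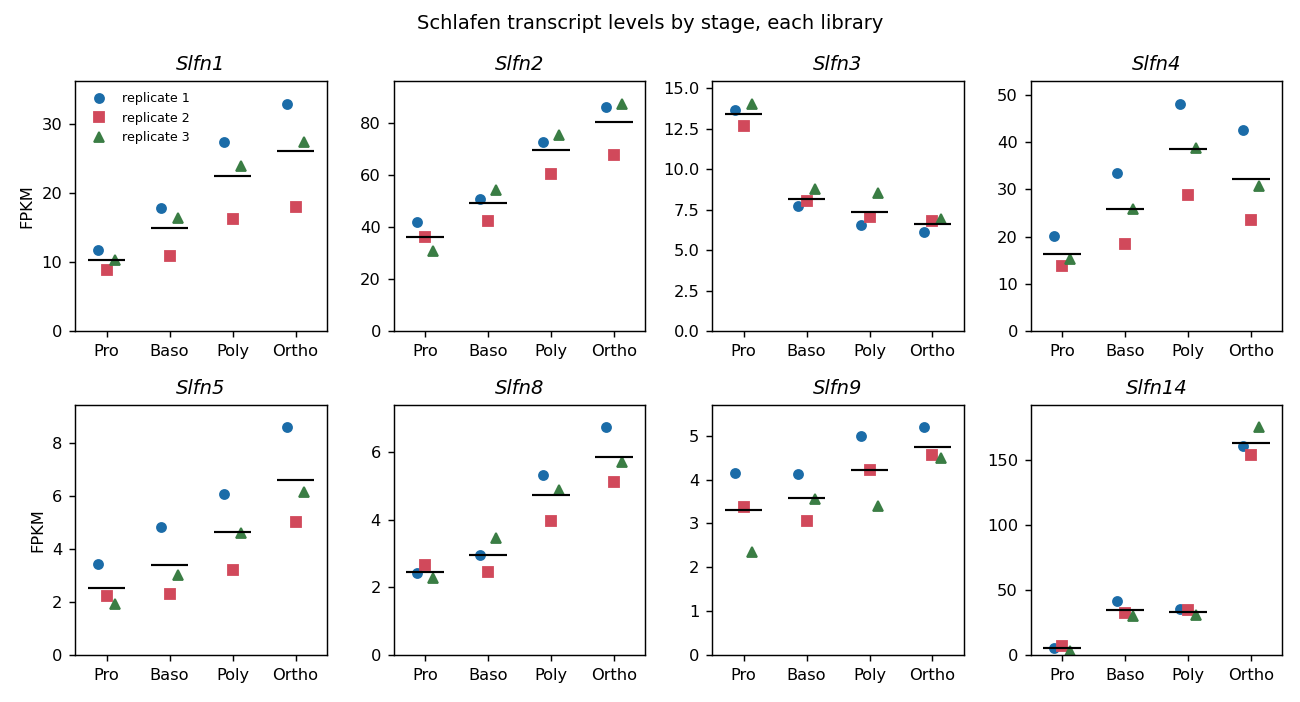
FPKM (y axis, linear, from 0) of the 8 Schlafen genes in the Pro, Baso, Poly and Ortho stages (x axis), with a symbol for each replicate number and a line at the mean of 3 libraries. Slfn14 stands at 154 to 175 in Ortho and at 41.6 or less in all other libraries, and Slfn3 is highest in Pro. Replicate 1 lies above replicate 2 in every stage for Slfn1, Slfn2, Slfn4, Slfn5 and Slfn9.

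The summed FPKM of the 8 members was 90.0 ± 11.7, 143 ± 21.7, 185 ± 24.5 and 326 ± 35.6 (SD, n = 3) along the stages from Pro to Ortho. Slfn14 made up 5.74% ± 1.86 of the Pro sum, 24.4% ± 3.5 of the Baso sum, 18.3% ± 3.06 of the Poly sum and 50.4% ± 4.06 of the Ortho sum. Slfn2 made up 40.3% ± 1.75 in Pro and 24.6% ± 0.844 in Ortho. The order of the means changed accordingly. In Pro it was Slfn2, Slfn4, Slfn3, Slfn1, Slfn14, Slfn9, Slfn5 and Slfn8, and in Ortho it was Slfn14, Slfn2, Slfn4, Slfn1, Slfn3, Slfn5, Slfn8 and Slfn9. Among neighbours in this order, the Pro libraries overlapped for Slfn4 and Slfn3, Slfn14 and Slfn9, Slfn9 and Slfn5, and Slfn5 and Slfn8. The Ortho libraries overlapped for Slfn4 and Slfn1, Slfn3 and Slfn5, Slfn5 and Slfn8, and Slfn8 and Slfn9.

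**Figure D2:**
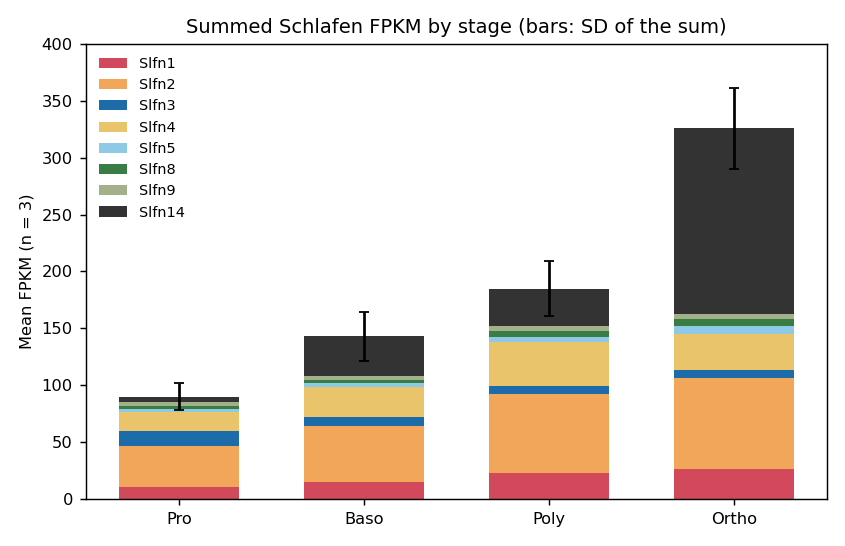
Mean FPKM (y axis, n = 3) of the 8 Schlafen genes stacked for each stage (x axis), with error bars for the SD of the summed value. The sum is 90.0 in Pro and 326 in Ortho, where Slfn14 alone makes up 50.4% of it.

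The other 7 members were compared between stages. In Ortho compared with Pro, 6 of 7 rose (Slfn1, Slfn2, Slfn4, Slfn5, Slfn8 and Slfn9) and Slfn3 fell at an adjusted p under 0.05, where 22.7% of all genes tested passed as higher and 53.2% as lower. For the same 6 genes every Ortho library lay above every Pro library, as for 23.2% of all genes, and for Slfn3 every Ortho library lay below, as for 53.6% of all genes. With the limit on the fold change, 3 of 7 were called different, Slfn1, Slfn2 and Slfn5, all higher, where 6.33% of all genes were called higher and 30.1% in either direction. The median log2 fold change of the 7 members was 0.98, against -0.42 for all genes tested. The count of calls depended on the scaling, with 5 of 7 when hemoglobin genes were left out or the libraries were centred on their median (Slfn4 and Slfn8 in addition), where 24.1% and 25.9% of all genes were called, 15.3% and 16% as higher. With equal library sums it was 1 of 7, Slfn3, which was lower, where 39.7% of all genes were called and 37.3% as lower. It was 1 of 7 with a pseudocount of 5 and 5 of 7 with 0.1, where 16.1% and 40.6% of all genes were called, so the share of all genes moved in the same direction as the count. It was 5 of 7 without Ortho replicate 2, and 2 of 7 without Pro replicate 3 or Ortho replicate 1, where 29.1% to 30.6% of all genes were called.

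In Poly compared with Pro, Slfn1, Slfn2, Slfn4, Slfn5 and Slfn8 rose and Slfn3 fell, 6 of 7 members, where 66.1% of all genes passed in either direction, 23.3% as higher and 42.7% as lower. Of these, Slfn1 and Slfn4 were called different, where 3.59% of all genes were called higher and 16.4% in either direction. Only Slfn4 was called without Pro replicate 2 (19.1% of all genes called), Poly replicate 1 (16.7%) or Poly replicate 3 (16.6%). The same held with a pseudocount of 5 (8.23% of all genes called) and with equal library sums (20.8%). In Baso compared with Pro, 2 of 7 passed, Slfn2 higher and Slfn3 lower, where 57.0% of all genes passed in either direction, 14.9% as higher and 42.1% as lower, and 0 of 7 were called, where 10.4% of all genes were called. At an unadjusted p under 0.05 the Baso count was 3 of 7, against 61.6% of all genes. The members' median log2 fold change was 0.72 in Poly and 0.30 in Baso, against -0.20 and -0.23 for all genes. These 3 comparisons share the Pro libraries.

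From Baso to Poly, 2 of 7 members passed the test, Slfn2 and Slfn8, both higher, where 12.4% of all genes passed in either direction and 6.58% as higher, and 3 of 7 had an unadjusted p under 0.05, against 29.3%. From Poly to Ortho, 0 of 7 passed with limma, where 26.1% of all genes passed, and 0 of 7 had an unadjusted p under 0.05, against 34.7%. This depended on the scaling. Slfn8 passed as higher with hemoglobin genes left out (0.38, limma adjusted p = 0.0462) and with median centring (0.41, 0.0326). In these settings 25.7% and 26.1% of all genes passed. Slfn3 passed as lower with equal library sums (-0.30, limma adjusted p = 0.0428), where 34.8% of all genes passed. In both steps 0 of 7 were called different, where 0.516% and 5.86% of all genes were called. Same-numbered Baso, Poly and Ortho libraries deviated together. In a fit of these 3 stages that took this number as a block, Slfn1 (limma adjusted p = 0.00293), Slfn4 (0.00234) and Slfn5 (0.0201) also passed from Baso to Poly, where 23.1% of all genes passed in that fit. From Poly to Ortho the same fit passed Slfn1 (limma adjusted p = 0.0436), Slfn2 (0.0124) and Slfn5 (0.00556) as higher and Slfn4 (0.00968) as lower, where 31.9% of all genes passed.

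**Figure D3:**
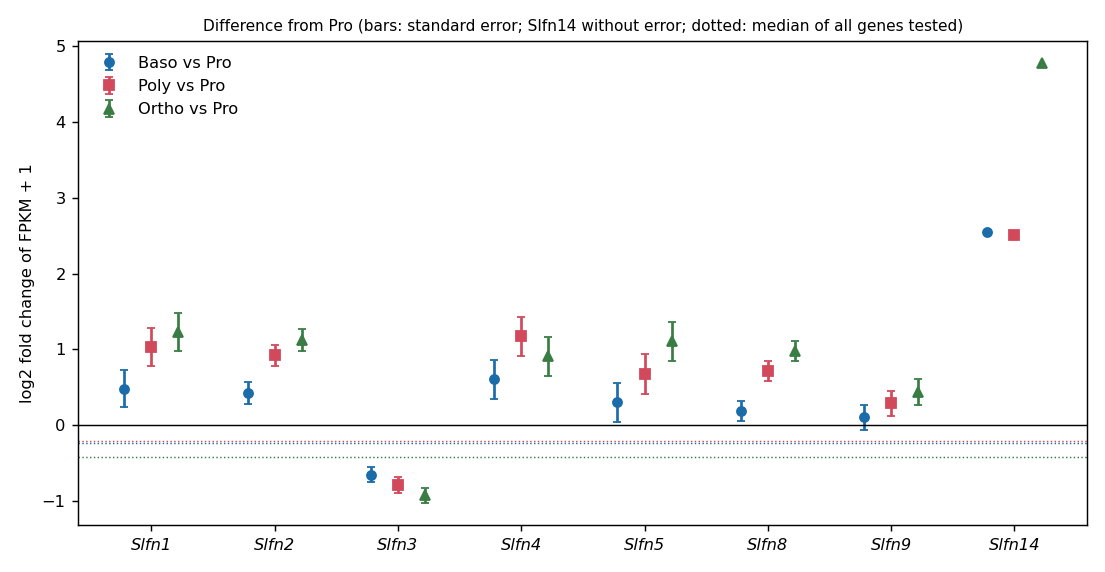
Log2 fold change of FPKM + 1 (y axis) of the 8 Schlafen genes (x axis) in Baso, Poly and Ortho compared with Pro, with the standard error from limma and, dotted, the median of all genes tested in each comparison. Slfn14 is at 2.55, 2.52 and 4.77 and is shown without an error because it was not tested, 6 members lie above 0 in all 3 comparisons, and Slfn3 lies below 0 at -0.65, -0.79 and -0.92.

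Slfn1 and Slfn2 are the shortest members and consist of little more than the Schlafen domain. Slfn2 was the most abundant member in every stage but Ortho. Its Pro libraries held 42.0, 36.2 and 30.9 FPKM and its Baso libraries 50.8, 42.3 and 54.4. Poly libraries held 72.8, 60.3 and 75.5, and Ortho libraries 86.1, 67.7 and 87.5. The libraries of Pro, Baso and Poly did not overlap, and those of Poly and Ortho did. Slfn2 was higher by 0.43 (limma adjusted p = 0.0238) in Baso, 0.92 (0.000166) in Poly and 1.13 (2.23e-05) in Ortho compared with Pro. The step from Baso to Poly was 0.49 (limma adjusted p = 0.0462), and it missed the threshold in 13 of 23 alternatives, among them leaving out any Baso or any Poly library. The difference between Baso and Pro missed it without Pro replicate 3, Baso replicate 1 or Baso replicate 3, with equal library sums and without the filter. An antisense gene, Gm20234, overlaps Slfn2, and it was at 0.330 to 1.27 FPKM.

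Slfn1, named for its effect on thymocyte growth, was at 11.8, 8.91 and 10.3 FPKM in Pro and 17.8, 10.9 and 16.4 in Baso. It was at 27.5, 16.2 and 24.0 in Poly and 33.0, 18 and 27.5 in Ortho. All Poly and Ortho libraries lay above the Pro libraries, and neighbouring stages overlapped. Compared with Pro, Slfn1 was higher by 1.03 (standard error 0.25, limma adjusted p = 0.00309) in Poly and 1.23 (0.000745) in Ortho, and the difference of 0.48 in Baso did not pass (limma adjusted p = 0.115). The Baso difference passed in 4 of 22 alternatives, among them leaving out Baso replicate 2 (0.68, limma adjusted p = 0.0418) and hemoglobin genes (0.77, 0.0192). From Poly to Ortho the difference was 0.20 (limma adjusted p = 0.659), and -0.01 without Poly replicate 2.

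Slfn3 and Slfn4, of intermediate length, went in opposite directions although they are direct neighbours on the plus strand. The Pro libraries held 13.6, 12.6 and 14 FPKM of Slfn3 and the Baso libraries 7.69, 8.06 and 8.78. It was at 6.57, 7.02 and 8.55 in Poly and at 6.09, 6.78 and 6.94 in Ortho. Every Pro library lay above all the others, and the later stages overlapped in each step. Against Pro, the log2 fold changes of Slfn3 were -0.65 in Baso, -0.79 in Poly and -0.92 in Ortho, with limma adjusted p-values of 0.000218, 3.81e-05 and 6.24e-06. These differences kept their sign and passed in all 22 alternatives run for each, at -1.26 with equal library sums and -0.48 with hemoglobin genes left out in Ortho. Of the 100-base windows in Slfn3 transcripts, 2.75% also occur in the neighbouring pseudogene Gm11427, and how the counting divided such fragments is not given in the sources used here.

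Slfn4, which is known from activated macrophages and myeloid cells, was at 20.1, 13.8 and 15.3 FPKM in Pro and 33.5, 18.4 and 25.8 in Baso. It was at 48.0, 28.8 and 38.8 in Poly and 42.5, 23.5 and 30.6 in Ortho. Its mean was highest in Poly, all Poly and Ortho libraries lay above Pro, and Poly and Ortho overlapped. Slfn4 rose by 1.17 (standard error 0.26, limma adjusted p = 0.00194) in Poly and 0.91 (0.00732) in Ortho compared with Pro. The Ortho difference was 0.56 and did not pass with equal library sums (limma adjusted p = 0.084). The difference of 0.60 in Baso did not pass (limma adjusted p = 0.0657). It passed in 7 of 22 alternatives, among them without Baso replicate 2 (0.82, limma adjusted p = 0.024), without Pro replicate 1 (0.75, 0.0457), without Ortho replicate 1 (0.60, 0.049) and with hemoglobin genes left out (0.90, 0.0119).

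The long members Slfn5, Slfn8 and Slfn9 were low throughout, with no library above 8.59 FPKM. Slfn5, an interferon-regulated nuclear member, was at 3.43, 2.21 and 1.91 FPKM in the Pro libraries and 4.85, 2.31 and 3.01 in the Baso libraries. The Poly libraries held 6.07, 3.22 and 4.61 and the Ortho libraries 8.59, 5.03 and 6.16. Only the Ortho libraries all lay above those of Pro. It was higher than in Pro by 0.67 (limma adjusted p = 0.0393) in Poly and 1.11 (0.00228) in Ortho. The Poly difference missed the threshold without Pro replicate 2, Pro replicate 3, Poly replicate 1 or Poly replicate 3, where it was 0.49 to 0.66, and with equal library sums, with a pseudocount of 5 and with every expressed gene tested. In Baso the difference was 0.30 (limma adjusted p = 0.342).

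Slfn8 was at 2.43, 2.66 and 2.29 FPKM in the Pro libraries and 2.97, 2.45 and 3.46 in the Baso libraries. The Poly libraries held 5.33, 3.98 and 4.88 and the Ortho libraries 6.73, 5.11 and 5.70. Pro and Baso overlapped, and all Poly and Ortho libraries lay above them. Slfn8 rose by 0.72 (limma adjusted p = 0.00056) in Poly and 0.98 (3.76e-05) in Ortho compared with Pro, and by 0.53 (0.028) from Baso to Poly. The Baso difference of 0.19 did not pass (limma adjusted p = 0.249), but with hemoglobin genes left out it was 0.41 (0.0198). The step from Baso to Poly missed the threshold without Baso replicate 1, Baso replicate 2, Poly replicate 1 or Poly replicate 3, where it was 0.44 to 0.54, and without the filter.

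Slfn9 was at 4.16, 3.39 and 2.36 FPKM in the Pro libraries and 4.14, 3.06 and 3.55 in the Baso libraries. The Poly libraries held 5.01, 4.22 and 3.40 and the Ortho libraries 5.19, 4.55 and 4.5. The Ortho libraries lay above those of Pro and Baso, and the other stages overlapped. Slfn9 was higher in Ortho than in Pro by 0.44 (limma adjusted p = 0.0311), the smallest difference among the 7 members tested. This missed the threshold without Pro replicate 3 (0.27), Ortho replicate 1 (0.38) or Ortho replicate 2 (0.46), without the filter and with equal library sums (0.14). In Poly the difference of 0.29 did not pass (limma adjusted p = 0.149), and it passed without Pro replicate 1 (0.43, 0.0429) and with hemoglobin genes left out (0.55, 0.0135). Slfn8 and Slfn9 share sequence with each other and with the pseudogene Slfn10-ps, with 3.38% and 3.71% of their 100-base windows found in another Schlafen transcript, so their values are less certain than those of Slfn14, Slfn1 and Slfn5, for which this was 0%.

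Other rows with a Schlafen name were the pseudogene Slfn10-ps and the antisense gene Slfn5os. Slfn10-ps was at 1.07 to 1.44 FPKM in Pro and 0.764 to 1.01 in Ortho, a log2 fold change of -0.30 that did not pass (limma adjusted p = 0.0717), and it was lower in Baso by -0.45 (0.0186). Slfn5os was at 0.454 FPKM or less in every library and was not tested.

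Markers of other blood cells moved with several members, although cells with CD45, CD11b and GR1 had been gated out. The summed FPKM of 14 neutrophil markers lay between 7836 and 9549 in Pro libraries, 13150 and 15426 in Baso, 16975 and 20191 in Poly, and 15160 and 18890 in Ortho. All 14 passed as higher in Poly and 13 of 14 in Ortho compared with Pro, where 23.3% and 22.7% of all genes passed as higher. Their median log2 fold changes were 1.07 and 0.89, against -0.20 and -0.42 for all genes, beside 1.17 and 0.91 for Slfn4. S100a9, which encodes a calcium-binding protein of neutrophils, had a mean of 2633 in Pro and 6101 in Ortho (1.24, limma adjusted p = 6.98e-05), and its partner S100a8 and the granule gene Ngp were higher by 1.12 and 0.88. Replicate 1 had the highest and replicate 2 the lowest neutrophil sum in Baso, Poly and Ortho, and the same held for Slfn1, Slfn4 and Slfn5 in these stages. In Pro, replicate 1 had the lowest neutrophil sum and the highest Slfn1, Slfn4 and Slfn5. The part of such cells in the differences of these members was not tested.

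The 16 monocyte and macrophage markers summed to 309 to 384 FPKM in Pro and 677 to 781 in Ortho. Of the 11 tested, 8 passed as higher in Ortho, as did 22.7% of all genes, with a median log2 fold change of 1.11 over the 11, beside 1.13 for Slfn2 and 0.98 for Slfn8. Ly6c2 (0.93, limma adjusted p = 3.57e-05), Mpeg1 (1.32, 3.66e-07) and the chemokine receptor gene Ccr2 (1.77, 3.09e-06) had the highest FPKM of this list. Macrophage genes of the list differed in level. C1qa, C1qb, C1qc, Mrc1 and Cd163 were at 1.09 FPKM or less in every library. Csf1r went from a mean of 11.7 in Pro to 26.4 in Ortho and Cd68 from 12.3 to 29.1, both called higher. Adgre1 went from 3.84 to 7.85 and Vcam1 from 3.03 to 2.25. The 10 B cell markers summed to 86.7 to 144 in Pro and 207 to 284 in Ortho. All 10 passed as higher in Ortho, against 22.7% of all genes, with a median log2 fold change of 1.12, against -0.42 for all genes. They were led in FPKM by Vpreb3 (1.22) and by Cd79b (1.37) and Cd79a (1.41), which encode the signalling subunits of the B cell receptor. Of 15 T and NK cell markers, only 5 passed the filter and were tested, with a median log2 fold change of 0.56 in Ortho. Of these, 4 passed as higher, Nkg7 (0.56) and Gzma among them, where 22.7% of all genes did. Lck was at -0.08 (limma adjusted p = 0.758), and Cd3e and Cd3g, which define T cells, were at 0.0534 FPKM or less in every library. The part of white cell RNA in Slfn1, Slfn2, Slfn4, Slfn5 and Slfn8 was not tested. The summed FPKM of 15 megakaryocyte and platelet markers went the other way from Slfn14, with 91.6 to 159 in Pro and 50.7 to 63.8 in Ortho. Of the 14 tested, 9 passed as lower in Ortho, where 53.2% of all genes did, and 1, Itga2b (0.39), as higher. Their median log2 fold change was -0.92, against -0.42 for all genes. The mean of Itgb3 was also higher, with 6.03 in Pro and 7.09 in Ortho. Pf4, a platelet chemokine, was at -1.79 and Gp9, a subunit of the von Willebrand factor receptor, at -1.96.

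**Figure D4:**
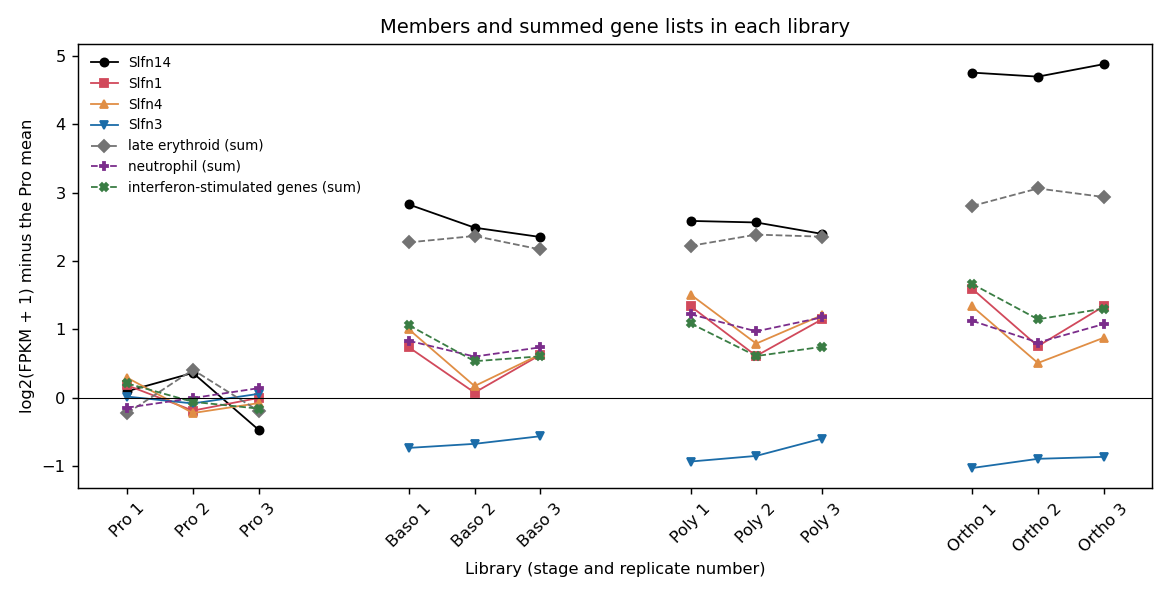
Log2 of FPKM + 1, or of the summed FPKM + 1 for gene lists (dashed), minus the mean of the Pro libraries (y axis) in each of the 12 libraries (x axis). Slfn14 has the highest difference in Ortho, replicate 2 is the lowest of Baso, Poly and Ortho for Slfn1, Slfn4 and the neutrophil and interferon-stimulated sums, and Slfn3 lies below 0 in these stages.

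The genes closest to each member were found by the Pearson correlation of log2(FPKM + 1) over the 12 libraries, which share the stages, and they are given as a description. The 5 closest to Slfn14 were Ube2o (0.997), Rnf10 (0.997), Sowaha (0.996), Ypel4 (0.996) and Cmas (0.995). Ube2o encodes a ubiquitin-conjugating enzyme that removes ribosomal proteins in reticulocytes, Rnf10 a ubiquitin ligase that acts on the small ribosomal subunit, and Cmas an enzyme that activates sialic acid. Ube2o had means of 32.8, 104, 107 and 327 FPKM in Pro, Baso, Poly and Ortho, and Rnf10 had 99.0, 204, 198 and 378. Both were chosen for their likeness to Slfn14 in these libraries, so their similar means in Baso and Poly follow from that choice. Few genes differed in that step, with 0.516% of all genes tested called. The log2 fold change from Pro to Ortho was 3.29 for Ube2o, 1.93 for Rnf10, 4.0 for Sowaha, 3.12 for Ypel4 and 2.82 for Cmas, against 4.77 for Slfn14.

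The closest genes to the other members were of other kinds. Those of Slfn1 were Cd300ld (0.986), Il1f9 (0.983) and Cd101 (0.981), and those of Slfn4 were Il1f9 (0.973), Cd300lf (0.968) and Csf3r (0.959), the receptor of granulocyte colony-stimulating factor. Slc11a1, a metal transporter of phagocytes, was closest to Slfn2 (0.986), followed by Xdh (0.984) and Cyba (0.980), a subunit of the phagocyte oxidase. Slfn5 was closest to the interferon-inducible genes Ifi204 (0.981) and Ifi211 (0.955), with Jaml (0.962) between them. Slfn8 was closest to Naip2 (0.984), an inflammasome receptor, Tlr13 (0.974), a receptor for bacterial ribosomal RNA, and Pgd (0.971). Slfn3 was closest to Dus1l (0.987), Ruvbl1 (0.987) and Sdsl (0.986), which had their highest means in Pro. Slfn9 had the weakest likeness, with Cib2 (0.918), Tmbim6 (0.914) and Zyx (0.902). Among the members, Slfn14 correlated with the others at 0.628 (Slfn4) to 0.863 (Slfn2) and with Slfn3 at -0.915, while Slfn1 and Slfn2 correlated at 0.950 and Slfn2 and Slfn8 at 0.957.

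Genes of the pathways that Schlafens belong to were compared with the members. Of 34 interferon-stimulated genes tested, 9 were called higher in Ortho than in Pro, among them Rsad2, Isg15 and Oasl2, and 1, Ifit2, lower, where 6.33% of all genes were called higher and 23.8% lower. The median log2 fold change was 0.57, against -0.42 for all genes. With hemoglobin genes left out 17 were called higher and 0 lower, against 15.3% and 8.84% of all genes. Rsad2, which encodes the antiviral protein viperin, went from 22.5, 21.8 and 15.2 FPKM in Pro to 398, 263 and 330 in Ortho, a difference of 3.99 on the log2 scale (limma adjusted p = 3.61e-08). Isg15, a ubiquitin-like modifier, went from a mean of 29.0 to 235 (3.09, limma adjusted p = 4.99e-06), and Irf7, a regulator of interferon genes, was called higher in Baso, Poly and Ortho (1.16, 1.05 and 1.27). Ifitm3, which restricts virus entry, was higher by 0.73 (limma adjusted p = 0.00112). Replicate 1 had the highest sum of these genes in every stage, as it had the highest Slfn1, Slfn4, Slfn5 and Slfn9. The sum lay between 426 and 550 FPKM in Pro and between 1055 and 1509 in Ortho.

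Slfn14 acts on ribosomes, and 18 of 22 genes tested that act on stalled or spent ribosomes passed as lower in Ortho than in Pro and 1 as higher, where 53.2% and 22.7% of all genes did. Of the 22, 0 were called higher and 5 lower (Abce1, Ascc3, Gtpbp1, Rack1 and Zfp598), near the 23.8% of all genes called lower, with a median log2 fold change of -0.62 against -0.42 for all genes. With hemoglobin genes left out 2 were called lower and 1 higher, where 8.84% of all genes were called lower, and with equal library sums 10 were called lower, where 37.3% of all genes were. Abce1, which splits ribosomes for recycling, fell from a mean of 60.4 to 19.9 FPKM (log2 fold change -1.55, limma adjusted p = 3.61e-08), and Pelo, which recognises stalled ribosomes, from 23.2 to 11.2 (-0.99, 1.91e-07). Rack1, a scaffold of the small subunit, was at -1.5 and Edf1, a sensor of collided ribosomes, at -0.83. Gtpbp2, a partner of Pelo, was higher, with 94.2 in Pro and 161 in Ortho (0.77, limma adjusted p = 3.89e-06), and it was called higher in Baso and in Poly. Of 22 genes tested from a list of ribonucleases and related genes, not all of them cytoplasmic, 8 were called lower in Ortho, against 23.8% of all genes. Rnase4, a secreted ribonuclease, was called higher (1.1, limma adjusted p = 9.09e-05), and Rnaseh2c was lower (-1.35, 8.01e-07). Rnaset2a was higher by 0.24 (limma adjusted p = 0.0188), Rnaset2b was at 0.08 (0.843), and with hemoglobin genes left out 2 genes of this list were called lower, against 8.84% of all genes.

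In the cluster 12 genes were tested, 4 of them not among the members. The pseudogene Gm11427, between Slfn3 and Slfn14, was at 25.5 to 28.3 FPKM in Pro and 50.3 to 59.5 in Ortho, and was called higher (log2 fold change 1.04, limma adjusted p = 4.02e-07). The RNA gene AI662270, which overlaps it, was at 57.7 to 89.3 in Pro and 60.6 to 67.2 in Ortho, with a log2 fold change of -0.09 that did not pass (limma adjusted p = 0.744). Gm11425, a processed pseudogene, was lower at -0.87 (0.000177). Beyond Slfn14, the closest gene start was that of the RNA gene AA465934 at 4.97 kb, with -0.49 (limma adjusted p = 0.25), and Ap2b1 was lower at -0.30 (0.000666). Beyond Slfn5, Nle1, a ribosome assembly factor, was called lower at -1.31 (6.96e-06), and Rffl was higher at 0.65 (2.04e-06). Zfp830, Rad51d and Lig3 on that side were lower at -0.76, -0.58 and -0.40, and on the side of Slfn14 Snord7 was at -0.55 (limma adjusted p = 0.139) and 1700020L24Rik higher at 0.57 (0.000151). Among the genes named here that were not members, the difference between Ortho and Pro thus reached from -1.31 to 1.04, and Slfn14 stood at 4.77.

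**Figure D5:**
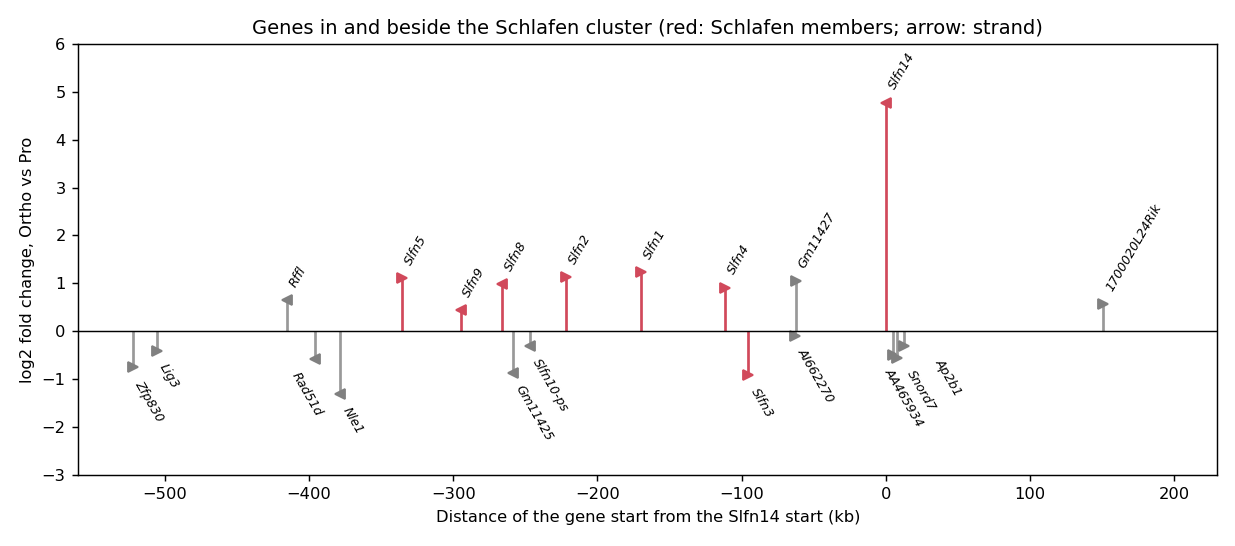
Log2 fold change between Ortho and Pro (y axis) of genes tested in and beside the Schlafen cluster against the distance of their start from that of Slfn14 in kb (x axis, linear). Schlafen members are red and other genes grey, and the arrow gives the strand. Slfn14 is at 4.77, all others shown lie between -1.31 and 1.23, and Slfn3 at -0.92 lies beside Slfn4 at 0.91.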

How the data were processed

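RNA sequencing of 12 libraries was analysed, 3 for each of 4 stages. The authors trimmed reads with Cutadapt and Trimmomatic, aligned them to mm10 with HISAT2, handled alignments with SAMtools, counted with featureCounts, and deposited FPKM per gene and library. The tool that gave the FPKM, the annotation release, strandedness and versions are not given in the sources used here. The labels name Trizol and NEBNext Ultra, the study's methods Geek reagents and KAPA Hyper Prep. In 1213 genes with low values, ratios of Pro replicates 1 and 2 showed no steps of whole fragments (4.37% in the fullest step), so the depth is unknown, no counting error is given, and precision rests on the spread of 3 libraries.

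Of 29839 lines, 1 repeat was removed. GENCODE M21 (mm10) gave positions for 29785 of 29838 identifiers, and 21 date-like symbols were replaced by those of GENCODE. The log2(FPKM + 1) values of all 12 libraries entered 1 limma model with a variance trend (version 3.58.1, R 4.3.3), for genes that reached 1 FPKM in 3 or more libraries. P-values are two-sided, with Benjamini-Hochberg adjustment over all genes tested in a comparison. An exact permutation test of 3 against 3 libraries cannot go below 0.1. The study's DESeq2 needs counts and was not run. The model was tested on simulated data. Python 3.11.15 was used for summaries and figures.

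The named genes were the members, other rows with a Schlafen name, the closest genes by correlation, the 3 most abundant genes of each list, and the nearest 5 tested genes on either side of the cluster and those inside it; other list genes named here were chosen after their values were seen. Some results are not reported here. Members and lists were chosen with earlier results of these data known. Alternatives were other pseudocounts, filters, scalings, variance models, a replicate block and leaving out each library. Libraries with the same number deviated together between Baso, Poly and Ortho (correlations 0.156 to 0.319), from the values alone, and less between Pro and these stages (0.00524 to 0.0968).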

Additional observations from a re-analysis of the deposited data

How the results depend on the processing

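Of 769 values of the 7 tested members under the alternatives, 697 kept their direction and side of the threshold, 31 passed in addition, 36 no longer passed and 5 changed sign. The counts of members called with Slfn14 left aside are given with the share of all genes in brackets. In Poly compared with Pro the count was 2 (16.4%). It was 1 with a pseudocount of 5 (8.23%) or with equal library sums (20.8%). The adjusted p alone gave 6 (66.1%), and leaving a library out gave 1 to 3 (15.7% to 19.1%). In Ortho compared with Pro it was 3 (30.1%). It was 5 with a pseudocount of 0.1 (40.6%), with hemoglobin genes left out (24.1%) or with median centring (25.9%). It was 1 with a pseudocount of 5 (16.1%) or equal library sums (39.7%). The adjusted p alone gave 7 (75.9%), and leaving a library out gave 2 to 5 (29.1% to 32.6%). With the adjusted p alone it was 2 in Baso compared with Pro (57.0%) and 2 in Poly compared with Baso (12.4%), against 0 each (10.4% and 0.516%). The Slfn14 difference between Ortho and Pro, 4.77, was 4.06 with a pseudocount of 5 and 5.21 without hemoglobin genes, and it ran from 4.54 to 4.96 over the libraries left out. The sign changed for Slfn1 from Poly to Ortho without Poly replicate 2 (-0.015 to 0.43 over the libraries left out), for Slfn3 in that step with median centring (0.015), for Slfn9 in Baso against Pro with equal library sums (-0.033) and without Pro replicate 3 (-0.061 to 0.25 over the libraries left out), and for Slfn9 from Poly to Ortho with equal library sums (-0.0026). None of these passed the test. The mean FPKM filter of 5 left out Slfn5, Slfn8 and Slfn9. Pro shares only numbers with the other stages. With the replicate number as a block over all 12 libraries, Slfn1 (limma adjusted p = 0.00206), Slfn4 (0.000205) and Slfn5 (0.0431) also passed in Baso compared with Pro, where 58.9% of all genes passed. The counts of members called stayed at 0, 2, 3, 0 and 0 in the 5 comparisons, where 10.5%, 16.5%, 30.3%, 0.531% and 5.87% of all genes were called. Apart from these and the block results given above, the block changed no other call of a member. FPKM without counts limits the precision of the low members Slfn5, Slfn8 and Slfn9. The causes were not tested.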

Other observations

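A list of early erythroid genes was mixed in the stage in which Slfn14 was highest, with several genes lower and others higher. Of 12 early erythroid genes, 6 were called lower in Ortho than in Pro (Cpox, Epor, Gata1, Klf1, Tal1 and Zfpm1), where 23.8% of all genes were called lower, and 2, Gata2 and Csf2rb, were called higher, against 6.33%. At the adjusted p alone 7 passed as lower and 4 as higher, against 53.2% and 22.7% of all genes. Of the rest, Myb (57.1 to 73.9 FPKM) and Cd34 (8.58 to 16.7) had higher means in Ortho than in Pro. Kit (17.8 to 14.5) and Myc (34.7 to 22.7) had lower means. Compared with Pro, 0 of the 12 were called lower in Baso or in Poly, where 8.54% and 12.8% of all genes were. Slfn14 already had means of 34.6 and 33.4 FPKM in these stages, against 5.17 in Pro and 163 in Ortho. From Poly to Ortho the same 6 genes were called lower, against 4.81% of all genes. Klf1, an erythroid transcription factor, had means of 320, 340, 292 and 69.3 FPKM in Pro, Baso, Poly and Ortho. Between Pro and Ortho it fell by 2.19 on the log2 scale (limma adjusted p = 5.11e-09).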
